A study of Homo sapiens with 6 samples.

Results

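The genes described here are 10 genes of the integrated stress response and of serine synthesis, read in RNA from Hep3B cells with a control guide and with RFX6 knocked out. They are ATF4, ATF3, DDIT3, TRIB3, CHAC1, ASNS, PSAT1, PHGDH, SESN2 and DDIT4, chosen by name, and each was 1 row among the 16721 rows of the count table. Hep3B is an established cell line from a human hepatocellular carcinoma. RNA was sequenced in 3 libraries labelled sgControl, of genotype WT, and in 3 libraries labelled sgRFX6, a CRISPR knockout of the transcription factor RFX6 whose columns are named sg3. The study's methods give lentiCRISPRv2 delivery, puromycin selection and clones expanded from single cells for these lines, so that a difference between the groups may also be a difference between clones. The control columns are named cas and name no guide. No source used here says whether the 3 libraries of a group came from separate cultures, so that the p-values measure the spread between these libraries, which may be technical.

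In the integrated stress response, kinases that sense unfolded protein, amino acid shortage, haem shortage or viral RNA phosphorylate the initiation factor eIF2α. General translation then slows while translation of ATF4 mRNA increases, and the ATF4 protein switches on genes for amino acid supply, redox balance and, through DDIT3 (CHOP), cell death. Because ATF4 is regulated largely through its translation, the level of ATF4 mRNA is not a readout of ATF4 protein. PHGDH, PSAT1 and PSPH form the chain that makes serine from the glycolytic intermediate 3-phosphoglycerate, and in liver tumours this chain feeds glycine and one-carbon units.

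The promoters of 5 of these genes are shown because they hold a short element of the kinds marked below. Only the C/EBP-ATF response element was taken as an element of the response. The AP-1 element and the E-box are shown as letters and were not taken as such. The windows are the 250 bases before the first RefSeq start of each gene on GRCh38.p14, and all 10 genes had one. The capitals mark the C/EBP-ATF response element core (CARE, letters TGATGNAA), an AP-1 element (TGACTCA) or an E-box (CACGTG), searched on both strands.
ASNS (chr7:97872409-97872658, - strand, CARE core 68 to 61 bases before the start): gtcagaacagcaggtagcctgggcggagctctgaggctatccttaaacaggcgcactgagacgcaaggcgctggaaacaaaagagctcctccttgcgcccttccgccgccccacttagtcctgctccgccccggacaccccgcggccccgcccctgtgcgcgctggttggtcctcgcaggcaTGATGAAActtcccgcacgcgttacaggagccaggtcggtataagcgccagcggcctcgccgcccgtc
CHAC1 (chr15:40953221-40953470, + strand, CARE core on the reverse strand 209 to 202 bases before the start): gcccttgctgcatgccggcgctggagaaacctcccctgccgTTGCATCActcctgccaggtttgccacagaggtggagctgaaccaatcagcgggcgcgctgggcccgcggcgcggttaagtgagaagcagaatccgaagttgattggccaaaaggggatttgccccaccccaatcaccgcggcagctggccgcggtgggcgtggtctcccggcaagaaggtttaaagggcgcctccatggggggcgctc
ATF3 (chr1:212565157-212565406, + strand, CARE core 191 to 184 bases before the start): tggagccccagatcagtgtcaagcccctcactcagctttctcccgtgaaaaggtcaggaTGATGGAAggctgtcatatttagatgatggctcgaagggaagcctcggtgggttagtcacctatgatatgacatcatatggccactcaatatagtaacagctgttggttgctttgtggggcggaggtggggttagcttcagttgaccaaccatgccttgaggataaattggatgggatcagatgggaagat
DDIT3 (chr12:57520515-57520764, - strand, AP-1 element 241 to 235 bases before the start): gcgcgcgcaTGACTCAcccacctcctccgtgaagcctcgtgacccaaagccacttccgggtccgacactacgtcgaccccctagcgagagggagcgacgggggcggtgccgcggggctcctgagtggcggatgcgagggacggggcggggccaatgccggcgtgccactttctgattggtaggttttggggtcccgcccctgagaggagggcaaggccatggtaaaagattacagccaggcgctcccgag
ATF4 (chr22:39520309-39520558, + strand, E-box 82 to 77 bases before the start): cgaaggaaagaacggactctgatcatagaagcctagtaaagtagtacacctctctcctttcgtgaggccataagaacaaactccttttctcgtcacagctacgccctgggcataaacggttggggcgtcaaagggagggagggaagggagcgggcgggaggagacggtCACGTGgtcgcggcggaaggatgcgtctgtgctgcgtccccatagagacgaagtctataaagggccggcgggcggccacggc
The CARE core was in 3 of the 10 windows, those of ASNS, CHAC1 and ATF3, against 3.89% of 27305 RefSeq genes with a window of this length. A gene was counted in such shares if any of its windows held the element, and the 10 genes gave the same counts that way. The second windows of ATF3 and ASNS, at starts further downstream, held no CARE core. Of the 10 windows, that of DDIT3 alone held the AP-1 element (5.19% of all genes) and that of ATF4 alone the E-box (7.73% of all genes). The CCAAT box was in 7 of the 10 windows and in 37.0% of all genes. The cyclic AMP response element TGACGTCA (2.03% of all genes), the ER stress response element (CCAAT and CCACG at a fixed distance, 0.0916%) and the RFX family's X-box (GTTNCC, AT and GGNAAC in a row, 0.154%) were in none of the 10. The CCAAT letters also open the ER stress response element. A match describes letters in a window and is not a bound site.

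The libraries held between 16730374 and 25070770 counts, and 12839 genes passed the filter on low counts. For RFX6 itself 117, 144 and 170 reads were counted in the controls and 69, 59 and 77 in the knockout, which is 5.64, 5.83 and 7.34 against 3.43, 3.71 and 3.50 CPM, the count scaled to the library size. The knockout libraries lay below the control libraries without overlap, with a log2 fold change of -0.82 (SE 0.26, edgeR adjusted p = 0.142), and RFX6 mRNA remained measurable in each of them. All 10 hepatocyte markers were above 3 counts in at least some libraries, with a summed level of 260 to 307 CPM in sgControl and 210 to 225 CPM in sgRFX6. Of the defining markers, albumin (ALB) was at 12.9 to 32.1 CPM over all 6 libraries and transthyretin (TTR) at most at 0.88 CPM. APOA1 reached at most 2.45 CPM. AFP was low in sgControl, at 2.31, 1.58 and 2.20 CPM, and was at 9.98, 17.2 and 16.0 CPM in sgRFX6. Hepatocyte markers moved apart between the groups: AFP (log2 fold change 2.82, edgeR adjusted p = 0.0025) and AHSG (1.68, adjusted p = 0.012) rose and FGB (-2.45, adjusted p = 0.0042) fell, while HNF4A, the highest of them, was at -0.27 (adjusted p = 0.494) and APOB at -1.29 (adjusted p = 0.116). Their part in the results for the 10 genes was not tested. The fibroblast markers summed to 24.5 to 33.1 and 21.3 to 56.2 CPM, mostly LUM (54.7 CPM in sgRFX6 library 3), whereas the collagen genes COL1A1 (-2.08, edgeR adjusted p = 0.011) and COL1A2 (-3.71, adjusted p = 0.0028) fell to at most 1.70 CPM. The immune markers summed to 73.1 to 159 and 64.5 to 102 CPM, nearly all CD68, and the endothelial markers to 11.6 to 13.5 and 13.3 to 19.6 CPM. CD3E, a T cell marker, and KDR, an endothelial receptor, had at most 1 count in any library. Library deviations also followed gene GC content to different degrees, with Spearman's rho across genes between -0.75 and 0.54, lowest in sgRFX6 library 3. In such bulk RNA, fewer cells with a transcript and less of it per cell cannot be told apart.

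Of the 10 genes, DDIT3 alone was called at an adjusted p under 0.05, 2.01-fold higher in sgRFX6, and none was called lower. The edgeR quasi-likelihood test called 1 of 10 at an adjusted p under 0.05, where it called 3.74% of all 12839 genes tested (1.92% higher and 1.81% lower). At an unadjusted p under 0.05 it called 2 of 10, DDIT3 and ATF4, against 15.6% of all genes. The libraries of the groups did not overlap for the same genes, DDIT3 being higher and ATF4 lower in sgRFX6, whereas 23.1% of all genes had no overlap (12.0% higher and 11.2% lower). The log2 fold changes ran from -0.87 for PHGDH to 1.0 for DDIT3, with 7 negative and 3 positive and a median of -0.19, beside a median of 0.02 and 47.3% negative over all genes tested. That split of signs was 5 to 5 without sgControl library 1 (median -0.02) or without sgRFX6 library 3 (median -0.09), and 2 negative to 8 positive (median 0.12) when limma-voom weighted the libraries by quality. DESeq2 (6.97% of all genes called) and the fit with the GC trend removed (10.8%) also called 1 of 10, and 0 of 10 were called once the median of neighbouring genes was removed (3.16%).

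**Figure D1:**
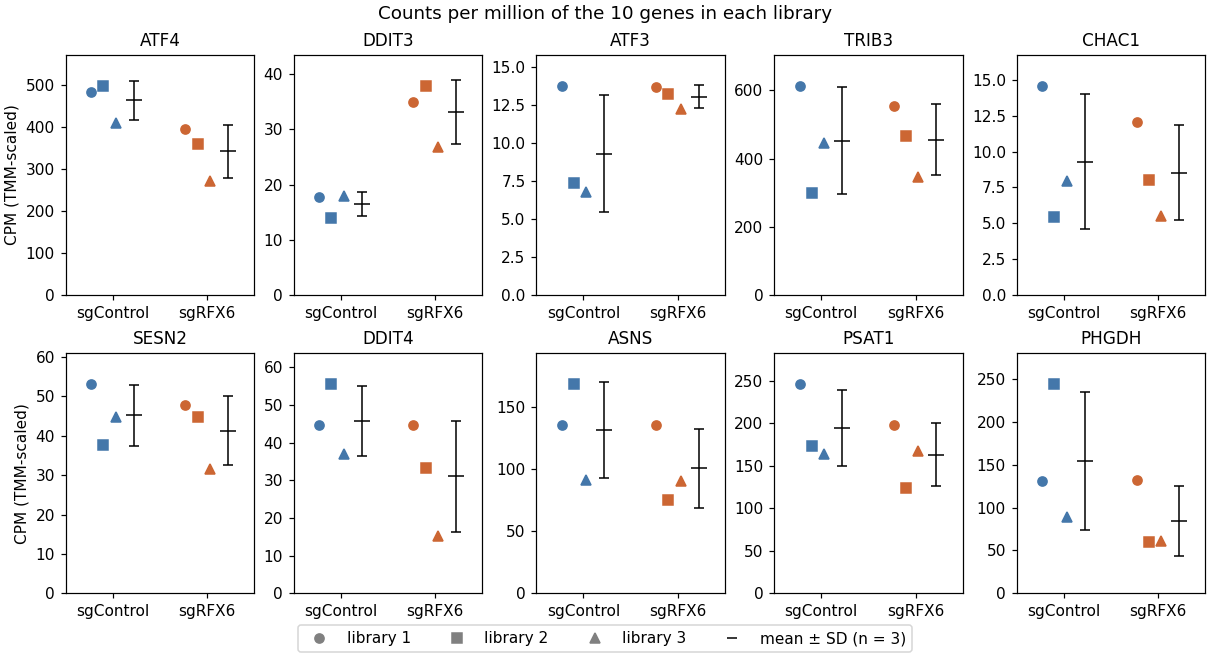
CPM (TMM-scaled, linear axis from 0) of the 10 genes in each library, with the mean ± SD of the 3 libraries of a group beside the points. The groups are apart for ATF4 (411 to 498 against 272 to 396 CPM) and for DDIT3 (14.0 to 17.9 against 26.8 to 37.8 CPM), and overlap for the other 8 genes.

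ATF4 (chr22:39519695-39522685, plus strand, GENCODE on GRCh38), the transcription factor at the centre of the response, was measured at 484, 498 and 411 CPM in sgControl and at 396, 360 and 272 CPM in sgRFX6, in the order of the library numbers used throughout. Every knockout library lay below every control library. The means were 464 ± 46.7 and 343 ± 63.4 CPM (SD, n = 3). The log2 fold change was -0.44 (SE 0.19), and the adjusted p of 0.317 (edgeR quasi-likelihood test) did not pass the threshold. The exact permutation test gave p = 0.1, the smallest that 3 against 3 libraries allow. None of 16 alternative settings called ATF4, and their log2 fold changes lay between -0.55 and -0.18. The 50 tested genes nearest to ATF4 on chromosome 22 had a median log2 fold change of -0.22.

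DDIT3 (chr12:57516588-57521737, minus strand), which encodes CHOP, a transcription factor of the stress-induced death programme under ATF4, was at 17.7, 14.0 and 17.9 CPM in sgControl and at 34.97, 37.8 and 26.8 CPM in sgRFX6. Its lowest sgRFX6 library was above its highest sgControl library. The mean rose from 16.5 ± 2.19 to 33.2 ± 5.75 CPM (SD, n = 3). The log2 fold change was 1.0 (SE 0.23, edgeR adjusted p = 0.046, exact permutation p = 0.1). The neighbouring 50 tested genes had a median of 0.05. The log2 fold change stayed between 0.89 and 1.14 over 16 alternatives and 9 of them called the gene. The call was lost without any 1 of sgControl library 1 (adjusted p = 0.129), 2 (0.117) or 3 (0.137) or sgRFX6 library 1 (0.182) or 2 (0.148), and with the regional median removed (0.065).

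On chromosome 12, 355 exon bases of DDIT3, or 27.2% of its exons in GENCODE, also lie in exons of the methionyl-tRNA synthetase gene MARS1 on the opposite strand. Whether the counting used strand is not stated in the sources used here, so that reads in this stretch cannot be assigned to 1 of the genes. MARS1 was measured at 319, 283 and 269 CPM in sgControl and 378, 291 and 253 CPM in sgRFX6, with overlapping groups and a log2 fold change of 0.08 (SE 0.19, edgeR adjusted p = 0.909). A further 58 bases lie in exons of MBD6 on the opposite strand, whose log2 fold change was 0.33 (SE 0.18, edgeR adjusted p = 0.440). On the same strand, 105 exon bases of DDIT3 (8.03%) also belong to AC022506.1, which had no row under that name in the count table.

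ATF3, a stress-induced factor of the same bZIP class that is usually a repressor, was at 13.7, 7.37 and 6.78 CPM in sgControl and at 13.7, 13.2 and 12.3 CPM in sgRFX6. Library 1 of sgControl reached the level of the sgRFX6 libraries, and the other sgControl libraries were below them. The log2 fold change was 0.49 (SE 0.31, edgeR adjusted p = 0.516). Without sgControl library 1 it was 0.88, and with limma-voom it was 0.74 (adjusted p = 0.025), a setting that called 31.1% of all genes.

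TRIB3, a pseudokinase that restrains ATF4 and DDIT3, was at 612, 300 and 447 CPM in sgControl and 554, 465 and 347 CPM in sgRFX6. The sgRFX6 values all fell within the range of sgControl, and the log2 fold change was 0.01 (SE 0.28, edgeR adjusted p = 0.994). CHAC1, an enzyme that degrades glutathione and lies downstream of ATF4, was at 14.6, 5.43 and 7.94 CPM in sgControl and 12.1, 8.04 and 5.50 CPM in sgRFX6. The groups covered nearly the same range, and the log2 fold change was -0.12 (SE 0.42, adjusted p = 0.943).

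SESN2 (sestrin 2) and DDIT4 (REDD1) both restrain the growth kinase mTORC1 under stress. SESN2 was at 53.0, 37.6 and 44.9 CPM in sgControl and 47.8, 44.7 and 31.4 CPM in sgRFX6, a log2 fold change of -0.13 (SE 0.23, edgeR adjusted p = 0.873). DDIT4 was at 44.6, 55.4 and 36.9 CPM in sgControl and 44.6, 33.4 and 15.3 CPM in sgRFX6, a log2 fold change of -0.56 (SE 0.36, adjusted p = 0.535). Library 1 of sgRFX6 lay within the sgControl range for both genes, and library 3 was the lowest of the 6 for both. For DDIT4 the log2 fold change was -0.91 without sgRFX6 library 1, -0.23 without sgRFX6 library 3 and 0.03 with limma-voom. The antisense gene DDIT4-AS1 shares 847 exon bases with DDIT4 and had no row under that name in the count table.

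ASNS, which makes asparagine and is a standard ATF4 target, was at 135, 169 and 91.5 CPM in sgControl and 136, 75.3 and 90.8 CPM in sgRFX6. One sgRFX6 library sat inside the sgControl range and the others below it, and the log2 fold change was -0.39 (SE 0.28, edgeR adjusted p = 0.589). It was -0.17 without sgControl library 2, -0.22 without sgRFX6 library 2 and -0.66 without sgRFX6 library 1. In GENCODE, 1985 exon bases of ASNS (44.6% of its exons) also belong to AC079781.5 on the same strand, and how such reads were counted is not given in the sources used here.

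PHGDH (chr1:119648411-119744226, plus strand), the first enzyme of serine synthesis, was at 131, 244 and 88.6 CPM in sgControl and at 132, 60.3 and 60.8 CPM in sgRFX6. Libraries 2 and 3 of sgRFX6 were below all sgControl libraries, while library 1 was as high as library 1 of sgControl. The means were 154 ± 80.2 and 84.4 ± 41.3 CPM (SD, n = 3). The log2 fold change of -0.87 (SE 0.42, edgeR adjusted p = 0.374) was the most negative of the 10 and did not pass the test. This value moved with single libraries, to -0.38 without sgControl library 2 and to -1.35 without sgRFX6 library 1, and limma-voom gave 0.08. PSAT1 (chr9:78297143-78330093, plus strand), the next enzyme of the chain, was at 246, 173 and 164 CPM in sgControl and 198, 124 and 168 CPM in sgRFX6. The groups overlapped, and the log2 fold change was -0.25 (SE 0.23, adjusted p = 0.702). It was -0.047 without sgControl library 1, -0.093 without sgRFX6 library 2 and -0.41 without sgRFX6 library 1.

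**Figure D2:**
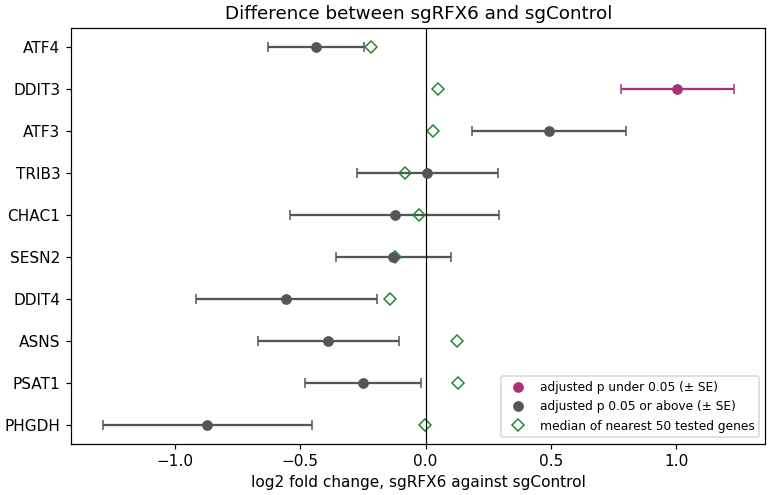
Log2 fold change (sgRFX6 against sgControl) of the 10 genes with its SE from the edgeR fit, and as open diamonds the median of the 50 tested genes nearest to each on its chromosome. DDIT3 at 1.0 is the point with an adjusted p under 0.05, and the widest SE is that of PHGDH and CHAC1 (0.42).

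Levels were compared between genes after division by the length of the principal transcript. In sgControl the order, in CPM per kilobase, was ATF4 (230), TRIB3 (181), PSAT1 (88.8), PHGDH (59.7), ASNS (56.0), DDIT4 (26.1), DDIT3 (17.6), SESN2 (13.1), CHAC1 (5.97) and ATF3 (4.57). Neighbours were apart in all libraries for TRIB3 above PSAT1, ASNS above DDIT4, DDIT4 above DDIT3 and SESN2 above CHAC1, and the other neighbours overlapped. In sgRFX6, TRIB3 (182) and ATF4 (170) overlapped at the top, followed by PSAT1 (74.6), ASNS (42.8), DDIT3 (35.3), PHGDH (32.7), DDIT4 (17.8), SESN2 (12.0), ATF3 (6.42) and CHAC1 (5.47), and only ATF4 above PSAT1 and SESN2 above ATF3 were apart. DDIT3 stood after DDIT4 in sgControl, without overlap, and ahead of PHGDH in sgRFX6, with overlap.

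Within each library, the level of DDIT3 per kilobase was 0.0785, 0.0605 and 0.0937 times that of ATF4 in sgControl and 0.190, 0.226 and 0.211 times in sgRFX6. The groups did not overlap, with means of 0.0776 ± 0.0166 and 0.209 ± 0.0180 (SD, n = 3). This separation was fixed by the values above, since DDIT3 was higher and ATF4 lower in every sgRFX6 library than in every sgControl library. The ratio of TRIB3 to ATF4 was 1.02, 0.487 and 0.879 in sgControl and 1.13, 1.04 and 1.03 in sgRFX6, which also did not overlap though the highest sgControl value was close to the lowest sgRFX6 value. The ratio of PHGDH to PSAT1 was 0.450, 1.19 and 0.458 in sgControl and 0.564, 0.413 and 0.306 in sgRFX6, with overlap. These ratios were chosen after the values were seen and are given as a description.

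The libraries of a group were not equally close over tested genes, measured as chi-square per degree of freedom between 2 libraries. In sgControl it was 17.2 for libraries 1 and 3, and 91.4 and 73.8 for the pairs with library 2. In sgRFX6 it was 18.9 for libraries 1 and 2, and 100 and 125 for the pairs with library 3. Its part in the values of the 10 genes was not tested. The spread among the 3 libraries of a group differed between the 10 genes. The coefficient of variation (CV) of CPM was highest for PHGDH, at 52.0% in sgControl and 48.9% in sgRFX6, where the highest library was 2.75 and 2.19 times the lowest. CHAC1 was next in sgControl at 50.6% (38.8% in sgRFX6). At the other end, ATF4 had 10.1% and 18.5% and DDIT3 13.2% and 17.3%, which were below the medians over all tested genes of 17.0% in sgControl and 22.2% in sgRFX6. The CV was above that median for 8 of 10 genes in sgControl and for 6 of 10 in sgRFX6, with medians over the 10 genes of 26.2% and 22.8%. ATF3 spread by 41.5% in sgControl and 5.61% in sgRFX6, and DDIT4, next to PHGDH in sgRFX6, the other way by 20.4% and 47.6%. Among the 500 tested genes closest in level, the CV of PHGDH stood at the 99.6th percentile in sgControl and the 97.4th in sgRFX6, that of TRIB3 at the 95.0th and 66.0th, that of ASNS at the 92.8th and 90.0th, and that of ATF4 at the 38.4th and 43.8th.

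**Figure D3:**
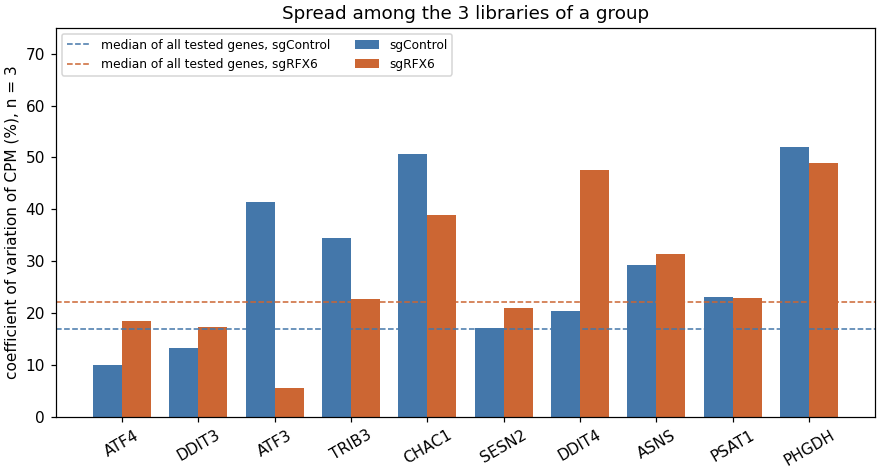
Coefficient of variation (%) of CPM over the 3 libraries of each group for the 10 genes, as bars from 0, with dashed lines at the medians of all tested genes (17.0% in sgControl and 22.2% in sgRFX6). PHGDH and CHAC1 reach 52.0% and 50.6% in sgControl, and ATF4 stays below the line in both groups.

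Some libraries stood high or low for most of the 10 genes. Library 1 of sgRFX6 was the highest of its group for 9 of 10 genes, all but DDIT3, while it was highest for 26.2% of all tested genes. It was highest for 9 also after the GC trend of each library was removed, a setting for which no share over all tested genes was computed. Library 3 of sgRFX6 was the lowest of its group for 7 of 10 genes, against 47.7% of all tested genes. After the GC trend was removed it was lowest for 4 of 10, and library 2 of sgRFX6 for 6. In sgControl, library 1 was highest for 5 genes (35.1% of all tested genes) and lowest for none, and library 3 was lowest for 6 (23.8% of all tested genes). With the GC trend removed, library 1 of sgControl was highest for 7. PHGDH and ASNS peaked in library 2 of sgControl, as did DDIT4 and ATF4, whereas TRIB3, CHAC1, SESN2 and DDIT3 were lowest there. The part of GC content or library quality in these orders was not tested beyond that removal, and the genes are not independent of each other.

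**Figure D4:**
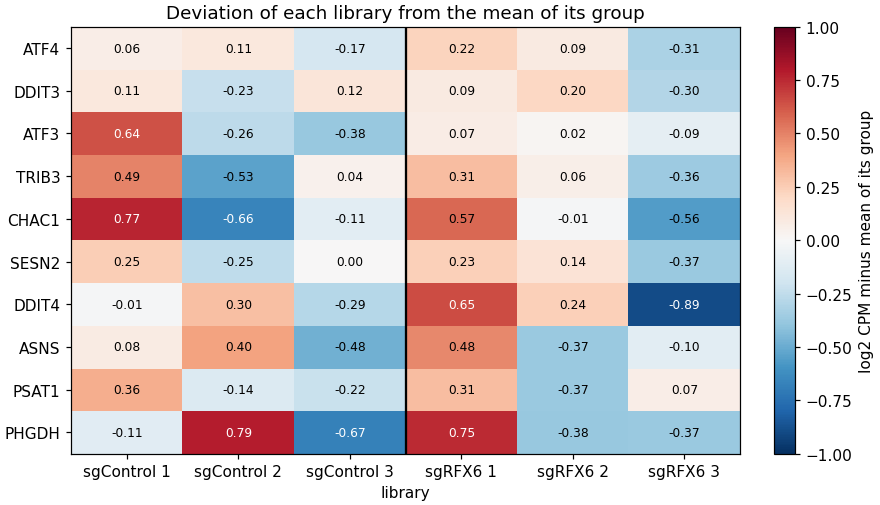
Deviation of each library from the mean of its group in log2 CPM for the 10 genes (rows) in the 6 libraries (columns), on a colour scale from -1 to 1. Library 1 of sgRFX6 is above its group mean for all 10 genes (0.07 to 0.75), and DDIT4 in sgRFX6 library 3 is the lowest cell (-0.89).

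The wider pathway was read through 64 further genes in 7 lists, of which 62 were tested. The test called 1 higher and 1 lower, 3.23% of those tested, near the 3.74% over all genes, and 31 log2 fold changes were positive and 31 negative, with a median of -0.01. The called genes were PYCR1 and VLDLR. Upstream of ATF4, the 7 genes for the eIF2α kinases, eIF2α and its phosphatase gave 0 calls (0 also at an unadjusted p under 0.05) and a median of -0.09. The 2 largest differences there were those of the haem-regulated kinase gene EIF2AK1, at 0.27 (SE 0.16, edgeR adjusted p = 0.490), and of the phosphatase subunit gene PPP1R15B, at -0.25 (SE 0.20, adjusted p = 0.638), which was -0.082 without sgControl library 1 and -0.39 without sgControl library 2. EIF2AK1 did not overlap between groups and lies among 50 genes whose median was 0.41.

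Among 6 partner transcription factors no gene was called, 1 passed an unadjusted p under 0.05, and the median was 0.23. JDP2, a bZIP repressor related to ATF3, was at 23.5, 23.1 and 15.7 CPM in sgControl and 14.4, 8.80 and 8.68 CPM in sgRFX6, without overlap (log2 fold change -0.97, SE 0.29, edgeR adjusted p = 0.123). DESeq2 (adjusted p = 0.027) and the edgeR fit with the GC trend removed (adjusted p = 0.041) called JDP2. ATF5, the close relative of ATF4, had a log2 fold change of 0.60 (SE 0.31, adjusted p = 0.423), which was 0.31 without sgControl library 2.

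Of the other serine, glycine and one-carbon enzymes, 8 of 9 were tested, with 0 called, 1 at an unadjusted p under 0.05 and a median of 0.04. SHMT2, the mitochondrial enzyme that turns serine into glycine, was at 389, 649 and 441 CPM in sgControl and 403, 394 and 263 CPM in sgRFX6 (log2 fold change -0.48, SE 0.25, edgeR adjusted p = 0.416, and -0.24 without sgControl library 2 or -0.31 without sgRFX6 library 3). ALDH1L2, a mitochondrial folate enzyme, was at 9.54, 16.6 and 5.74 CPM in sgControl and 22.2, 13.3 and 25.2 CPM in sgRFX6 (0.93, SE 0.40, adjusted p = 0.312, and 1.40 without sgControl library 2). PSPH, which completes serine synthesis after PHGDH and PSAT1, was picked after its values were seen. It was at 42.8, 38.2 and 36.9 CPM in sgControl and 60.3, 52.5 and 45.6 CPM in sgRFX6, without overlap, with a log2 fold change of 0.43 (SE 0.19, adjusted p = 0.321) beside 0.51 for the 50 genes nearest to it. The 3 enzymes of the chain had log2 fold changes of both signs, and none of them passed the test. MTHFD2 was left out of the test by the filter, with 1 to 8 counts in a library.

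Among 8 other amino acid enzymes, PYCR1 rose and no other gene was called, with a median of -0.11. PYCR1, which makes proline in the mitochondrion, was counted 2, 12 and 11 times in the controls and 105, 78 and 67 times in the knockout, or 0.0964, 0.486 and 0.475 against 5.22, 4.90 and 3.04 CPM. The value of sgControl library 1 was below the floor of 3 counts (0.145 CPM there). With control counts this low, the size of the fold change is uncertain. The groups were far apart, with a log2 fold change of 3.59 (SE 0.52, edgeR adjusted p = 0.008), and all 16 alternatives called it, with values between 3.17 and 3.88. CBS, which joins homocysteine to serine, was at 72.1, 157 and 60.5 CPM in sgControl and 74.7, 40.5 and 42.3 CPM in sgRFX6 (-0.88, SE 0.39, adjusted p = 0.320). Without sgControl library 2 it was -0.34, and with limma-voom -0.04. As for PHGDH, library 2 of sgControl and library 1 of sgRFX6 were the highest of their groups.

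Of 13 genes for tRNA charging and export, none was called (0 at an unadjusted p under 0.05), none was without overlap, and the median was 0.01. The seryl-tRNA synthetase gene SARS1, at -0.36 (SE 0.22, edgeR adjusted p = 0.496), and the glycyl-tRNA synthetase gene GARS1, at 0.32 (SE 0.18, adjusted p = 0.464), differed most. They were -0.12 without sgControl library 2 and 0.20 without sgRFX6 library 1, respectively. The 9 amino acid transporters gave 0 calls, 1 at an unadjusted p under 0.05 and a median of -0.02. SLC38A2, a neutral amino acid transporter induced by amino acid shortage, had a log2 fold change of -0.54 (SE 0.27, adjusted p = 0.393), which passed without sgRFX6 library 3 (-0.88, adjusted p = 0.036) and was -0.34 without sgRFX6 library 2. It also passed with the GC trend removed (-0.65, adjusted p = 0.023) and with limma-voom (-0.67, adjusted p = 0.0043). For SLC1A4, a transporter of serine and alanine, the log2 fold change was -0.52 (SE 0.22, adjusted p = 0.282).

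Among 11 tested genes of 12 other targets reported under ATF4 or DDIT3, VLDLR was called lower and none was called higher, with a median of -0.13. VLDLR, a lipoprotein receptor that takes up triglyceride-rich particles, was at 21.3, 27.2 and 20.9 CPM in sgControl and 13.2, 10.6 and 10.9 CPM in sgRFX6, without overlap (-1.0, SE 0.23, edgeR adjusted p = 0.045). Its call was lost without sgControl library 1 (adjusted p = 0.116), 2 (0.1002) or 3 (0.151) or sgRFX6 library 1 (0.121) or 2 (0.142), and with genes filtered at a CPM of 1 (0.054). GDF15, a secreted stress cytokine under ATF4 and DDIT3, was at 70.0, 26.4 and 36.8 CPM in sgControl and 120, 131 and 83.4 CPM in sgRFX6, also without overlap. Its log2 fold change was 1.33 (SE 0.35, adjusted p = 0.084), and 4 of 16 alternatives called it, among them the fit without sgControl library 1 (1.82, adjusted p = 0.013). FGF21, a stress hormone of the liver, had at most 3 counts in a library and was not tested.

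Outside the pathway lists, relatives of the 10 genes (7 tested of 10 listed) gave 0 calls (0 at an unadjusted p under 0.05) and a median of 0.22. The largest difference beside ATF5 was that of the AP-1 subunit gene FOSL1, at 0.50 (SE 0.35, edgeR adjusted p = 0.571), which was 0.17 without sgControl library 2 and 0.89 without sgControl library 1. The IRE1 and ATF6 arms, the branches of the unfolded protein response that do not run through eIF2α, were read through 17 genes, with 0 called, 2 at an unadjusted p under 0.05 and a median of 0.19. Of these, 14 were positive, beside 6765 of all 12839 genes tested. An unadjusted p under 0.05 was reached by 15.6% of all genes (edgeR), and the list was not tested as a set. ERN1, which encodes the IRE1 sensor, was at 17.2, 16.2 and 14.1 CPM in sgControl and 30.8, 22.2 and 22.1 CPM in sgRFX6, without overlap (0.66, SE 0.23, adjusted p = 0.179). The edgeR fit with the GC trend removed (adjusted p = 0.046) and limma-voom (adjusted p = 9.5e-04) called ERN1. DNAJC3, a chaperone of the endoplasmic reticulum, had a log2 fold change of 0.52 (SE 0.41, adjusted p = 0.636), which was -0.01 without sgRFX6 library 3.

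**Figure D5:**
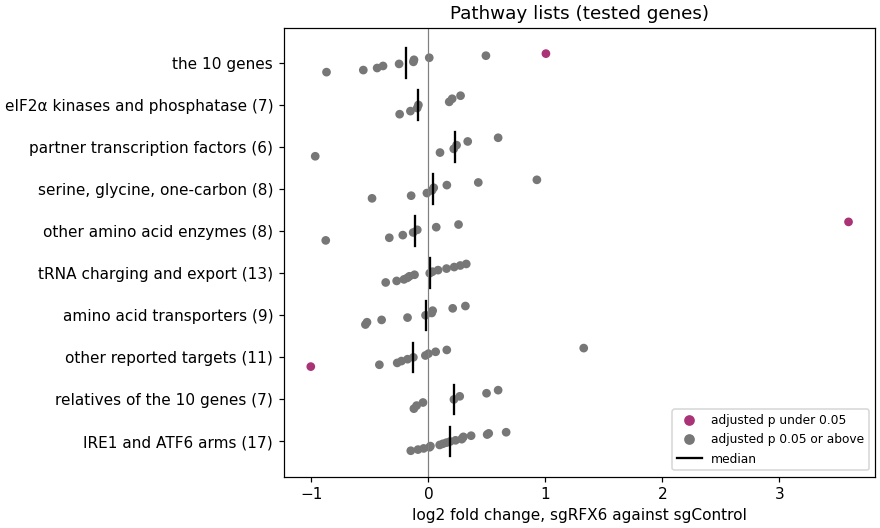
Log2 fold change (sgRFX6 against sgControl) of every tested gene of each list, 1 point a gene, with the list's median as a bar and the number tested in brackets. PYCR1 at 3.59, DDIT3 at 1.0 and VLDLR at -1.0 are the points with an adjusted p under 0.05, and the medians of the lists lie between -0.19 and 0.23.

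The 5 genes outside the lists whose pattern over the 6 libraries was closest to the median pattern of the 10 genes were TCONS_00024517, TNFSF9, CSRNP1, DDX28 and PVRIG, with root mean square differences of 0.041 to 0.104 in centred log2 CPM. The first is an assembled transcript named only by its identifier. TNFSF9, a ligand of the tumour necrosis factor family, was at 28.5, 19.6 and 19.99 CPM in sgControl and 27.1, 20.7 and 14.3 CPM in sgRFX6. Like the median of the 10 genes, it was highest in library 1 of each group and lowest in sgRFX6 library 3.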

How the data were processed

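RNA-seq counts were read for 3 sgControl and 3 sgRFX6 libraries of Hep3B cells. Per the labels, RNA was extracted with Trizol and sequenced on the Illumina platform. The values deposited are raw counts per gene or assembled transcript, not normalised. The submitters' processing notes name the builds GRCh38 and hg38, and the aligner, counter and annotation are not given in the sources used here. The columns were matched to samples by their names, and the control columns were taken as sgControl, the only control group. A row without a gene name (at most 9.17e-05% of a library) was left out.

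Counts were scaled by TMM and tested with edgeR 4.0.16 (quasi-likelihood test, filterByExpr with a minimum count of 10 and a minimum total of 15, R 4.3.3). Adjustment over the 12839 genes followed Benjamini and Hochberg, and calls were made under 0.05. At this depth the fit gave a common biological coefficient of variation of 0.269. Single genes were also compared with two-sided exact permutation tests of CPM, whose smallest p is 0.1. A level of 3 counts, the floor, was 0.122 to 0.189 CPM, and counting error is only part of the error since PCR reads are not independent molecules. Alternative settings were RLE factors, scaling by library size alone, robust dispersion, other filters, a replicate block, a GC correction (loess span 0.3), removal of the median of the nearest 50 genes, each library left out, limma-voom (limma 3.58.1) with sample quality weights, and DESeq2 1.42.0. The fit was tested on simulated data.

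The 10 genes and all lists were chosen with earlier results of these data known. Of each list, called genes were named, or the 2 with the largest absolute log2 fold change where fewer than 2 were called. Gene positions, exons and transcript lengths came from GENCODE on GRCh38 (15422 of 16721 row names matched directly and 260 by another symbol), which is not stated to be the authors' annotation. Promoter sequences came from RefSeq on GRCh38.p14. Pseudogenes of ATF4, ASNS and PSAT1 are annotated, and how reads shared with them were counted is not given in the sources used here.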

Additional observations from a re-analysis of the deposited data

How the results depend on the processing

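Over 16 alternatives the log2 fold changes of the 10 genes stayed on the same side of the threshold and in the same direction in 138 of 160 cases. DDIT3 lost its call in 7 cases and ATF3 gained one with limma-voom. The number of the 10 genes called was 1 in the reported fit, 0 with the replicate block, 0 with the regional median removed, 2 with limma-voom, and 0 to 1 when 1 library was left out. The number of pathway genes called was 2 in the reported fit, 1 with a filter at a CPM of 1, 4 with the GC trend removed, 4 with DESeq2, 18 with limma-voom, and 1 to 3 when 1 library was left out. Over all genes, 480 were called, against 648 with the replicate block, 895 with DESeq2, 1389 with the GC trend removed and 3998 with limma-voom, and between 212 and 718 when 1 library was left out. Deviations of same-numbered libraries from their group means correlated by -0.41, 0.17 and -0.09 across genes. Such deviations also followed GC content, so that these values cannot show whether the numbers pair the libraries. Under the replicate block the adjusted p of DDIT3 was 0.052, that of VLDLR 0.066 and that of GDF15 8.3e-04.

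Signs turned in 14 cases among the 10 genes, none of them called. TRIB3 was -0.019 with library size only, -0.0077 with the GC trend removed and -0.22 to 0.28 when 1 library was left out (-0.22 without sgControl library 2, -0.16 without sgRFX6 library 1, -0.016 without sgRFX6 library 2). CHAC1 ran from -0.46 to 0.35 with 1 library left out, being positive without sgControl library 1 (0.35) and sgRFX6 library 3 (0.12), and SESN2 from -0.25 to 0.041, with 0.0013 and 0.041 in the same fits. With limma-voom, CHAC1 was 0.27, ASNS 0.18, PHGDH 0.082, SESN2 0.0074 and DDIT4 0.035. The 18 other named genes gained a call in 17 of 288 cases and lost one in 7. Among these genes, EIF2AK1 was -0.13 and GARS1 -0.15 with the regional median removed, SARS1 was 0.00019 with limma-voom, and DNAJC3 ran from -0.0089 to 0.83 with 1 library left out. The cause of these turns was not tested. With 3 libraries a group, the observed differences of PHGDH and CHAC1, within the spread of their libraries, were not detectable as changes.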
